A study of Mus musculus with 26 samples.

Results

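The genes described here make, modify or sense oxysterols: Cyp27a1, Ch25h, Cyp7b1, Cyp39a1, Hsd3b7, Sult2b1 and Gpr183. They were chosen by name for these roles, with earlier results of these data known. They are 7 of 35975 genes with matched transcripts, and all 7 were among the 17063 genes abundant enough to be tested. Their mRNA was measured in 26 bulk RNA-seq samples of distal colon from wild type C57BL/6J male mice that started the experiment at about 10 weeks of age. The mice ate a standard diet (STD) or a diet with GW3965, a synthetic agonist of the liver X receptors (LXR). At days 22, 43 and 70 the mice of both diets had received azoxymethane (AOM), a colon carcinogen, at 10 mg per kg, followed by cycles of dextran sulfate sodium (DSS) in the drinking water, which injures the colonic lining. There were 3 samples per diet at each of these days, and the full schedule had 3 DSS cycles. At day 0 there were 4 samples per diet, without AOM or DSS, taken after 22 or 43 days on the diet. The question put to these genes was whether their mRNA differed between the diets and over the course of injury, repair and tumour growth.

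Oxysterols are oxidized forms of cholesterol, and several of them are natural ligands of LXR, the nuclear receptors that GW3965 also activates. Cyp27a1 is a mitochondrial enzyme that hydroxylates the end of the cholesterol side chain, and Ch25h makes a neighbouring side-chain oxysterol that is known for its induction by interferon and Toll-like receptor signals. Cyp7b1 and Cyp39a1 add a hydroxyl group to the sterol ring of oxysterols, Hsd3b7 then oxidizes the ring, and Sult2b1 adds sulfate to cholesterol and oxysterols. Gpr183, also called EBI2, is a chemotactic receptor of B cells, dendritic cells and innate lymphoid cells, and its main ligand is made by Ch25h and Cyp7b1 and removed by Hsd3b7. In the colon this ligand and receptor are known for guiding lymphoid cells to lymphoid follicles.

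Several facts of the libraries touch the results. Each library held 18195345 to 41522204 estimated counts. RNA integrity numbers were 9.1 to 10 outside day 43 and 2.6 to 9.3 at day 43, and ribosomal protein genes took 10.0% to 18.6% of counts at day 43 against 3.96% to 10.7% elsewhere. All standard-diet samples of days 22 and 43 came from one cage and all GW3965 samples of those days from another, as did the day 0 samples of each diet, so diet and cage cannot be told apart at days 0, 22 and 43. The day 0 cages were others than those of days 22 and 43, so in every comparison with day 0 time and cage cannot be told apart either. At day 70 each sample had its own cage. One day 0 sample titled as GW3965 carries the standard diet in another label and was kept under its title, and the labels do not state that every sample is a separate animal, so p-values cover the spread between samples. The paper's reporting summary speaks of pooled biological replicates for bulk RNA-seq, while a figure legend counts mice per timepoint. Whether a sample is a single animal or a pool is therefore not settled here. The summed level of 10 LXR target genes was higher on GW3965 than on the standard diet in all samples at every day (3929 to 5569 against 1525 to 2679 CPM at day 0, counts scaled to a common library size). One GW3965 sample of day 70, replicate 1, held 20658 CPM of skeletal muscle markers, against 8.99 to 731 CPM in all other samples. In bulk tissue, fewer cells of a type and less RNA per cell cannot be told apart.

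In the GRCm38 annotation the genes lie on separate chromosomes except Hsd3b7 and Sult2b1, with Cyp27a1 at chr1:74713574-74737892, Ch25h at chr19:34473778-34475164, Cyp7b1 at chr3:18071950-18243338, Cyp39a1 at chr17:43667425-43751431, Hsd3b7 at chr7:127800604-127803802, Sult2b1 at chr7:45729983-45784669 and Gpr183 at chr14:121952551-121965195. For Ch25h, Hsd3b7 and Gpr183, which each changed in at least 1 test below, the stretch just upstream of the start site is printed. The stretches of Cyp27a1 and Sult2b1 are described without being printed. Those of Cyp7b1 and Cyp39a1 were not at hand. Each line gives 250 bases up to the RefSeq start site, on the gene's own strand (GRCm38.p6: chr19:34475149-34475398 minus, chr7:127800359-127800608 plus and chr14:121965194-121965443 minus). Capitals mark a match to a searched motif.
Ch25h: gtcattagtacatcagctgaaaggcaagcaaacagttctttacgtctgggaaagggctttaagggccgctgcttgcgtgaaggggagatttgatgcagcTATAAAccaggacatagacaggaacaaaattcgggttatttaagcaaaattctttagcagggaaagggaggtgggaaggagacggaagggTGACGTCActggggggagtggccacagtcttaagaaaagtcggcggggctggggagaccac
Hsd3b7: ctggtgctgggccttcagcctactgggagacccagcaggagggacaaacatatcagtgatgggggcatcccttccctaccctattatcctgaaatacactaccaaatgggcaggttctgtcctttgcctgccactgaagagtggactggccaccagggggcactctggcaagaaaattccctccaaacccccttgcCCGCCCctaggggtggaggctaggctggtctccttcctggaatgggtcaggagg
Gpr183: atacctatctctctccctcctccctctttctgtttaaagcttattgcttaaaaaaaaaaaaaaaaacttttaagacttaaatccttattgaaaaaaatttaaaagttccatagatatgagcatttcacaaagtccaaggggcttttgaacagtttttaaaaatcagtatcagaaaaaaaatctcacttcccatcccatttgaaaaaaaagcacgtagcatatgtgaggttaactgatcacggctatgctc
The motifs, searched on both strands, were the LXR response element (AGGTCA, any 4 bases, AGGTCA), its half-site AGGTCA, an interferon response element (GAAA, any 2 bases, GAAA), the TATA box TATAAA, the CCAAT box CCAAT, the GC box GGGCGG and the cyclic AMP element TGACGTCA, of which the last 3 were added after the stretches had been read. The half-site lies inside the LXR element, and no other match overlapped another. Ch25h held a TATA box starting 151 bases and a cyclic AMP element starting 61 bases before its start site. These letters occur in 12.4% and 1.55% of the 32851 upstream stretches in the same table. Hsd3b7 held 1 GC box, starting 54 bases before its start (32.7% of stretches), and Gpr183 held no match. Cyp27a1 held 2 CCAAT boxes, starting 71 and 34 bases before its start (33.8% of stretches), and 1 GC box starting 28 bases before it. The LXR element was absent from all 6 stretches of the 5 genes found in the table (5 of 32851 stretches, 0.0152%), as was its half-site (4607 of 32851 stretches). The stretch of Gpr183 was poor in G and C (32%), against 50.4% for Ch25h, 58% for Hsd3b7 and a median of 52.4% over all stretches. These matches describe letters only and say nothing of binding.

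On the scale that corrects for transcript length (TPM, the share of transcripts after division by length), the 7 genes fell into a high and a low set. In untreated colon on the standard diet, Sult2b1 stood at 38.8 ± 7.91 TPM (SD, n = 4), Cyp27a1 at 23.7 ± 6.61 TPM, Hsd3b7 at 23.6 ± 0.765 TPM and Cyp39a1 at 12.3 ± 1.39 TPM (SD, n = 4 each). Gpr183, Ch25h and Cyp7b1 stood at 2.21 ± 1.58, 2.19 ± 0.615 and 1.84 ± 0.341 TPM (SD, n = 4 each). The genes of the Gpr183 ligand route thus included both the scarcest members (Ch25h, Cyp7b1) and one of the more abundant (Hsd3b7). The scarce genes rested on few reads, from 19 to 172 estimated counts per sample for Ch25h, 28 to 431 for Cyp7b1 and 22 to 376 for Gpr183, while Cyp27a1, Cyp39a1, Hsd3b7 and Sult2b1 never fell below 158.

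**Figure D1:**
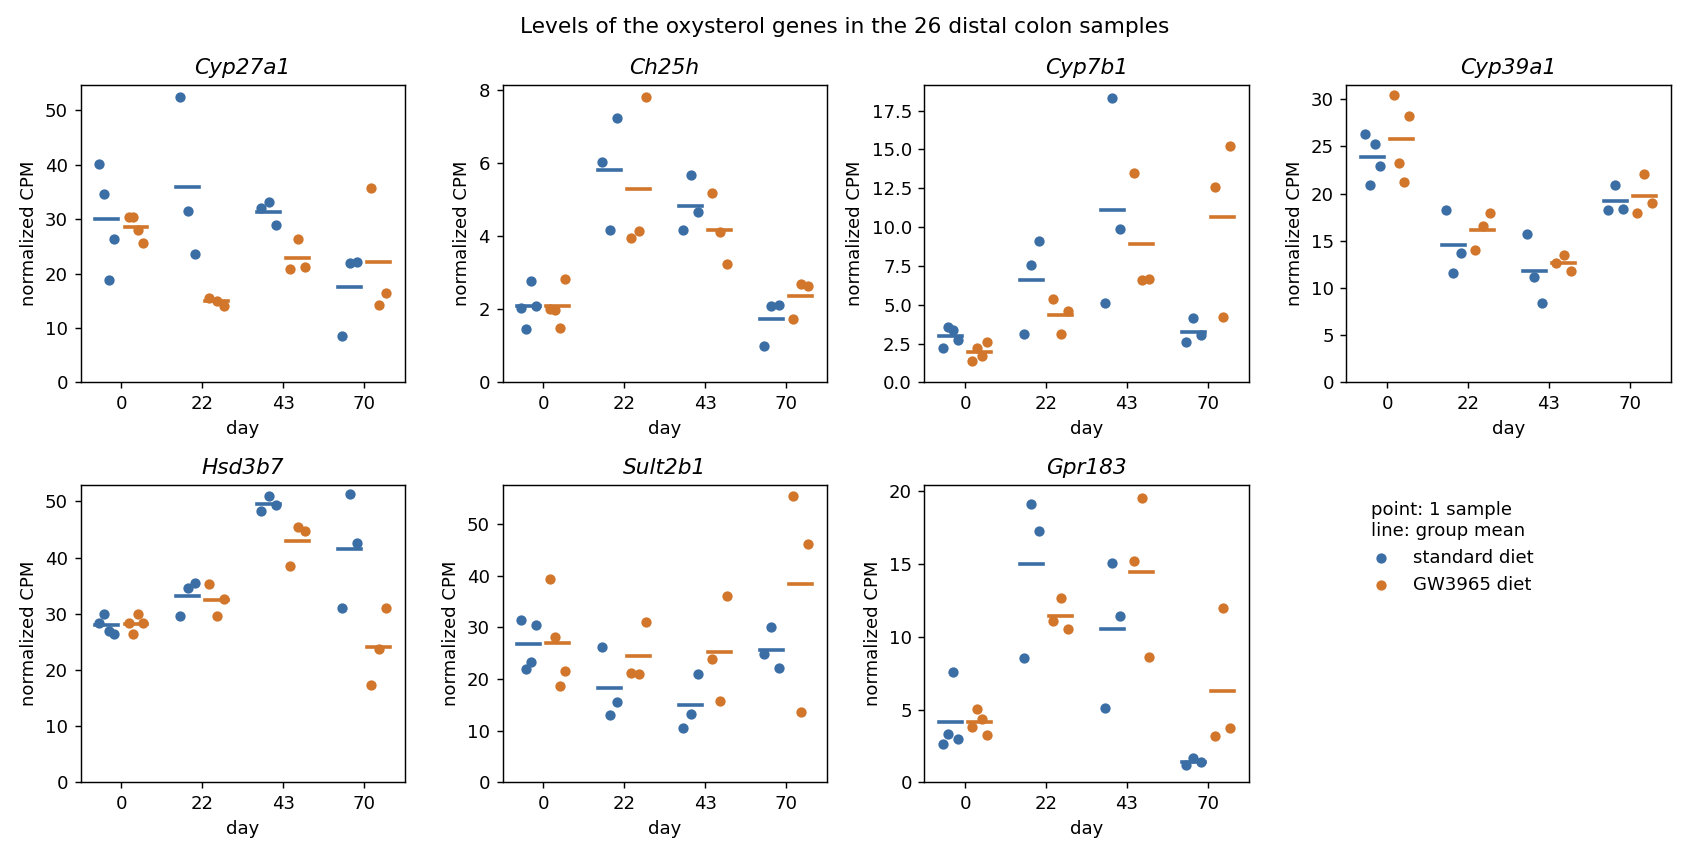
Normalized CPM (vertical axes, linear from 0) of each gene by day (horizontal axis) in all 26 samples, blue for the standard diet and orange for GW3965. Ch25h lies between 3.23 and 7.79 at days 22 and 43 and between 1.00 and 2.83 at days 0 and 70, and Gpr183 at day 70 is below 2 in the standard-diet samples only.

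Between the diets, 2 of the 7 genes passed the test, both at day 70: Gpr183 was higher on GW3965 and Hsd3b7 was lower. Neither passed on any earlier day. Among all genes tested, 1.83% passed at day 70, 0.0293% at day 0, 0.135% at day 22, 0.0293% at day 43 and 0.357% for the mean of the 4 days. No member passed at days 0, 22 or 43 or for the mean of days by edgeR's quasi-likelihood test. At an unadjusted p under 0.05 there were 0, 1, 0 and 2 members in these 4 comparisons, and DESeq2 called 0, 1, 0 and 0. The shares of all genes at an unadjusted p under 0.05 or by DESeq2 are not given here. These counts therefore show nothing particular to the members. The median log2 difference of the 7 genes at day 70 was 0.50, against 0.02 over all genes.

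**Figure D2:**
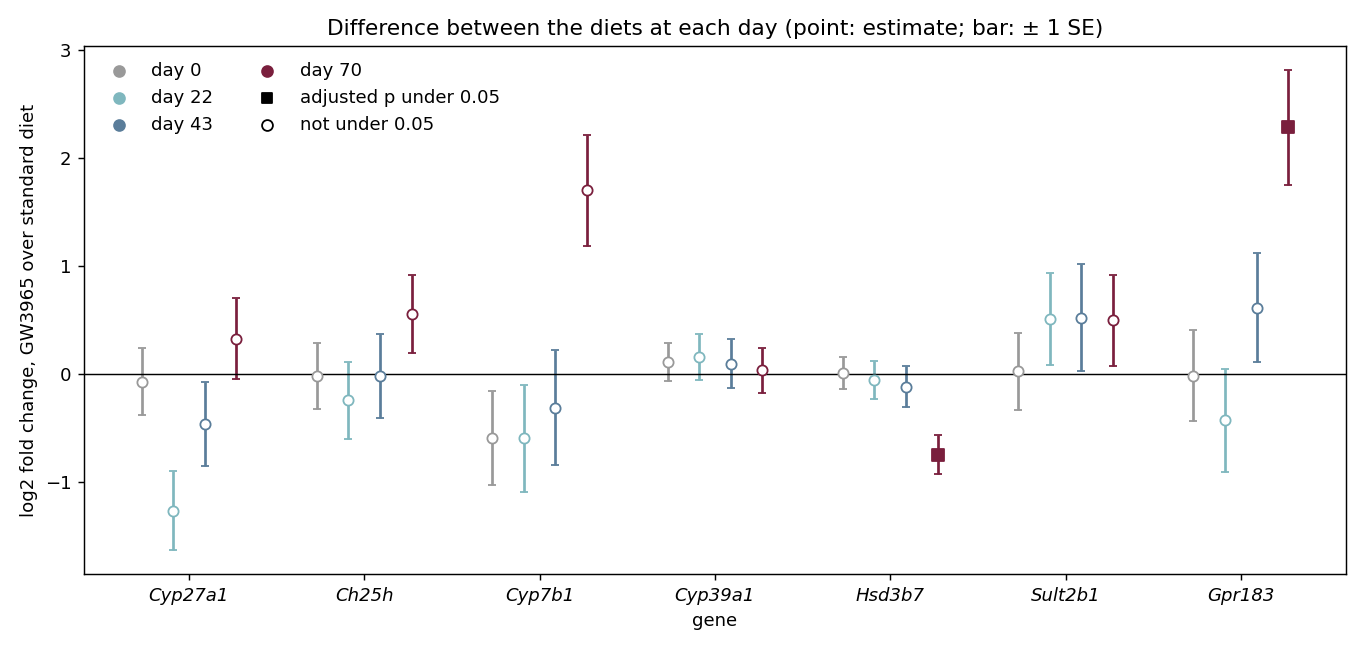
Log2 fold change of GW3965 over the standard diet (vertical axis) for each gene, with days 0, 22, 43 and 70 from left to right, bars of ± 1 SE and filled squares where the adjusted p is under 0.05. Filled squares appear for Hsd3b7 (-0.75) and Gpr183 (2.29), both at day 70.

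Cyp27a1, the enzyme of side-chain hydroxylation, was spread widely and passed no edgeR test in the model with the ribosomal term. At day 22 the standard-diet samples held 52.5, 31.4 and 23.6 CPM and the GW3965 samples held 15.6, 14.98 and 14.1 CPM. The GW3965 samples lay close together and below all standard-diet samples. In CPM they also lay below at day 43 (20.9 to 26.3 against 28.9 to 33.2 CPM, log2 difference -0.46 ± 0.39 (SE), adjusted p = 0.777). On the TPM scale the diets overlapped at day 43, at 11.5 to 15.7 TPM on GW3965 and 14.6 to 22.1 TPM on the standard diet. The protein-coding transcript then averaged 7.54 and 7.43 TPM, so the order of the diets at day 43 depends on the scale. The log2 difference between the diets at day 22 was -1.26 ± 0.37 (SE), adjusted p = 0.167 by edgeR and passed by DESeq2 (adjusted p = 0.0405). Over the other alternatives and with single samples left out it lay between -1.496 and -0.89, with adjusted p from 0.0762 (likelihood ratio test) to 0.535 (without standard-diet replicate 1), none of them passing. At days 0 and 70 the diets overlapped, with 18.9 to 40.1 and 25.6 to 30.4 CPM at day 0 and 8.62, 21.9 and 22.2 against 35.7, 14.3 and 16.5 CPM at day 70. Replicate 1 was the lowest of its group on the standard diet at day 70 and the highest on GW3965. Over time the GW3965 samples of day 22 lay below those of day 0 without overlap (log2 change -0.94 ± 0.36 (SE), adjusted p = 0.0995), which passed by DESeq2 (adjusted p = 0.0484) and narrowly without the ribosomal term (0.04999), and the same comparison on the standard diet gave 0.26 ± 0.34 (SE), adjusted p = 0.743. The difference between these 2 changes was -1.20 ± 0.48 (SE), adjusted p = 0.681. From day 0 to day 70 the log2 change was -0.77 ± 0.34 (SE), adjusted p = 0.089 on the standard diet, -0.37 ± 0.35 (SE), adjusted p = 0.482 on GW3965 and -0.57 ± 0.24 (SE), adjusted p = 0.0618 as their mean, which passed by DESeq2 (adjusted p = 0.0353). Neighbouring groups in the order of Cyp27a1 levels overlapped at all 7 steps.

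Part of the Cyp27a1 counts was assigned to transcripts that are annotated as keeping an intron and are not expected to make the enzyme. Of the gene's 3 transcripts 1, of 1892 bases, codes for protein. The other 2, of 645 and 784 bases, are annotated as retained introns. The split of counts between transcripts of the same gene is an estimate. The retained-intron transcripts took 3.72% ± 1.67 (SD, n = 4) of Cyp27a1 counts at day 0 on the standard diet and 3.62% ± 2.17 (SD, n = 4) on GW3965. At day 43 their share was 31.0% ± 12.3 (SD, n = 3) on the standard diet and 17.8% ± 2.47 (SD, n = 3) on GW3965, and every day 43 sample lay above every day 0 sample. The highest share, 45.1%, was in the standard-diet replicate 1 of day 43, the sample with an RNA integrity number of 2.6. At day 22 the shares were 11.4% ± 1.23 and 14.7% ± 3.94 (SD, n = 3 each), in samples with integrity numbers of 9.1 to 10. The part of RNA integrity in these shares was not tested. With protein-coding transcripts only, the Cyp27a1 difference between the diets at day 22 was also not called (adjusted p = 0.153).

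**Figure D3:**
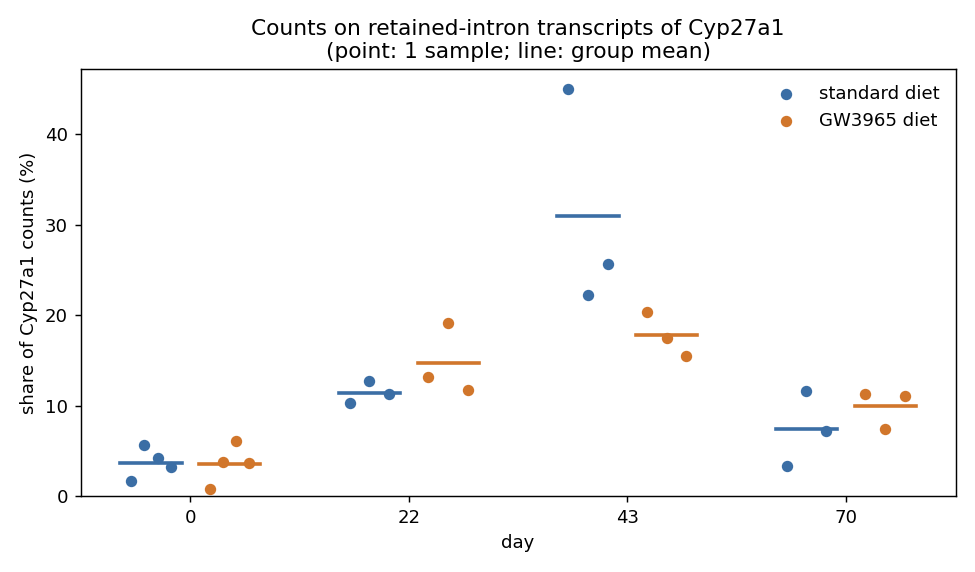
Share of Cyp27a1 estimated counts on its retained-intron transcripts (vertical axis, percent) by day, 1 point per sample, blue for the standard diet and orange for GW3965. Day 0 samples lie between 0.814% and 6.11% and day 43 samples between 15.5% and 45.1%.

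Ch25h, which makes the precursor of the Gpr183 ligand, rose at day 22 in both diets. The day 0 samples held 2.03, 1.46, 2.77 and 2.08 CPM on the standard diet and 2.01, 1.99, 1.5 and 2.83 CPM on GW3965. At day 22 they held 6.02, 4.18 and 7.23 CPM and 3.96, 4.15 and 7.79 CPM. All day 22 samples were above all day 0 samples, and the diets overlapped on both days. The log2 change was 1.39 ± 0.33 (SE), adjusted p = 0.0134 on the standard diet and 1.16 ± 0.35 (SE), adjusted p = 0.0348 on GW3965, and 1.27 ± 0.25 (SE), adjusted p = 0.00116 as their mean. The GW3965 call was lost without any one of 6 of its 7 samples, with adjusted p up to 0.107, without the day 43 samples (adjusted p = 0.152), with no filter (0.0668), with replicate numbers as blocks (0.0548) and narrowly with length-scaled counts (0.05002), and the standard-diet call was lost only without replicate 3 of day 22 (adjusted p = 0.0896). The mean over both diets kept its call in all alternatives. Markers of immune cells rose in the same comparison, with 8 of 8 T cell markers and 11 of 12 macrophage and monocyte markers higher at day 22 as a mean of both diets, and none at 0 in a whole group. The T cell sum was 15.9 to 48.7 and 15.9 to 24.1 CPM at day 0 and 103 to 194 and 135 to 142 CPM at day 22 on the standard diet and GW3965. The macrophage and monocyte sum was 557 to 848 and 494 to 694 CPM at day 0 and 1256 to 2342 and 2070 to 2355 CPM at day 22. At day 43, in the same order of diets, the T cell sum was 66.6 to 195 and 101 to 257 CPM. The macrophage and monocyte sum was then 2366 to 6186 and 2237 to 5790 CPM. At day 70 the T cell sum was 8.78 to 21.3 and 28.7 to 109 CPM, and the macrophage and monocyte sum 401 to 833 and 804 to 1302 CPM. The part of these cells in the Ch25h levels was not tested.

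At day 43 Ch25h stood at 4.16, 5.67 and 4.66 CPM on the standard diet and 5.17, 4.13 and 3.23 CPM on GW3965, again above all day 0 samples. At day 70 all samples but 1 were within the range of day 0, at 0.999, 2.09 and 2.11 CPM and 1.74, 2.69 and 2.65 CPM. On the TPM scale the day 43 level was 2.40 ± 0.527 and 2.40 ± 0.552 (SD, n = 3 each), close to the 2.19 ± 0.615 and 2.29 ± 0.637 (SD, n = 4 each) of day 0, so the day 43 rise depends on the scale. The only step without overlap in the order of Ch25h levels lay between the groups of days 22 and 43 and those of days 0 and 70.

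Cyp7b1, the enzyme that completes the Gpr183 ligand, had its highest mean CPM at day 43 on the standard diet and at day 70 on GW3965. At day 0 it was 2.21, 3.59, 3.40 and 2.72 CPM on the standard diet and 1.38, 2.25, 1.68 and 2.58 CPM on GW3965. At day 22 the samples held 3.12, 7.54 and 9.09 CPM and 5.40, 3.12 and 4.58 CPM, and the mean of both diets rose by a log2 change of 1.14 ± 0.36 (SE), adjusted p = 0.0298. That call was lost without any one of 6 samples and without the day 43 samples, with adjusted p up to 0.119. At day 43 the samples held 5.10, 18.3 and 9.86 CPM and 13.5, 6.63 and 6.66 CPM, all above day 0. On the TPM scale the standard-diet mean of day 43, 3.31 ± 2.21, was below that of day 22, 3.46 ± 1.70 (SD, n = 3 each), and replicate 1 of day 43 (1.52 TPM) lay within the day 0 range of that diet. On GW3965 the mean was 3.10 ± 1.40 TPM at day 43 and 7.11 ± 3.72 TPM at day 70 (SD, n = 3 each).

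At day 70 Cyp7b1 stood above day 0 on GW3965. The standard-diet samples held 2.58, 4.18 and 3.04 CPM, within or just above the range of day 0, while the GW3965 samples held 12.6, 4.20 and 15.2 CPM. Within GW3965 the log2 change over day 0 was 2.43 ± 0.48 (SE), adjusted p = 0.00156, and this call held in all alternatives and without any one sample (adjusted p up to 0.0181). On the standard diet the change was 0.13 ± 0.46 (SE), adjusted p = 0.855, and the mean of both diets was 1.28 ± 0.33 (SE), adjusted p = 0.0038. The direct difference between the diets at day 70 was 1.70 ± 0.51 (SE), adjusted p = 0.084, and the groups did not overlap, although the lowest GW3965 sample (replicate 2, 4.20 CPM) was almost level with the highest standard-diet sample (4.18 CPM). DESeq2 called this difference (adjusted p = 0.0233), as did a likelihood ratio test (0.0336), a fit with the RNA integrity number as covariate (0.0360) and edgeR without GW3965 replicate 2 (0.0239), all adjusted p. The other 13 of 17 alternatives did not call it. Its adjusted p reached 0.291 with 1 sample left out and 0.409 among the other settings. The difference between the 2 changes over time was 2.30 ± 0.68 (SE), adjusted p = 0.193, and DESeq2 called it (adjusted p = 0.0491).

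Markers of stratified squamous epithelium, the lining of the anal canal and skin, differed in the same samples. The sum of 12 such markers was 31074, 8.62 and 14200 CPM in GW3965 replicates 1 to 3 at day 70, where Cyp7b1 was 12.6, 4.20 and 15.2 CPM. In the standard-diet samples the sum was 3566, 5673 and 5008 CPM. At days 0 and 22 it did not exceed 31.0 CPM, and at day 43 it was 557 to 1793 CPM on the standard diet and 197 to 4448 CPM on GW3965. One of the 12 markers was at 0 in all samples of a day 0 group, in each diet, and none in the other groups. Neutrophil and macrophage markers followed the order of Cyp7b1 in some groups and not in others. The sum of 6 neutrophil markers was 1064, 272 and 1231 CPM in the GW3965 samples of day 70, in the order of Cyp7b1. In the standard-diet samples of day 70 it was 422, 714 and 354 CPM, where the order was not the same. It was 301, 534 and 772 CPM at day 22 and 2395, 12793 and 3043 CPM at day 43 on the standard diet, in the same order of samples as Cyp7b1 on each of these days. On GW3965 it was 524, 181 and 525 CPM at day 22 and 3152, 1578 and 824 CPM at day 43, where the order was not the same. The sum of 12 macrophage and monocyte markers at day 70 was 970, 1302 and 804 CPM on GW3965, the reverse of the Cyp7b1 order. On the standard diet it was 401, 833 and 466 CPM, in the order of Cyp7b1. None of the neutrophil or macrophage markers passed between the diets on that day. The part of these cells and of the squamous tissue in the Cyp7b1 levels was not tested.

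Cyp39a1, the other ring hydroxylase, fell at day 22 in both diets. It went from 26.3, 20.96, 25.2 and 22.9 CPM at day 0 to 18.3, 11.6 and 13.7 CPM at day 22 on the standard diet and from 30.4, 23.3, 21.3 and 28.2 CPM to 14.1, 16.5 and 17.99 CPM on GW3965, without overlap in either diet. The log2 changes were -0.71 ± 0.20 (SE), adjusted p = 0.0331 and -0.67 ± 0.21 (SE), adjusted p = 0.0421, and -0.69 ± 0.15 (SE), adjusted p = 0.00275 as their mean. Each diet's call was lost without several single samples (5 of 7 on the standard diet, adjusted p up to 0.162, and 4 of 7 on GW3965, adjusted p up to 0.207). With replicate numbers as blocks both were lost (adjusted p = 0.0507 and 0.0657), and the GW3965 call was also lost with no filter (0.0651) and with protein-coding transcripts only (0.0673), while the mean kept its call in all alternatives. The sum of 8 markers of differentiated colonocytes was 2155 to 4671 CPM at day 0, 1229 to 2628 CPM at day 22 and 425 to 776 CPM at day 43 on the standard diet. On GW3965 it was 2026 to 4923, 1257 to 1958 and 862 to 1041 CPM, and 2 of the 8 were lower at day 22 as a mean of both diets. At day 70, when Cyp39a1 was above its day 43 level, the sum was 475 to 1364 CPM on the standard diet and 174 to 1137 CPM on GW3965. As a mean of both diets 6 of the 8 were then lower than at day 0 and 1 higher. No marker was at 0 in a whole group, and the part of colonocyte number in the Cyp39a1 levels was not tested. The lowest levels were those of day 43, 15.7, 11.2 and 8.47 CPM and 12.7, 13.5 and 11.8 CPM. At day 70 Cyp39a1 was back at 18.3, 20.9 and 18.4 CPM and 17.97, 22.1 and 19.04 CPM, still below day 0 as a mean of both diets (-0.35 ± 0.14 (SE), adjusted p = 0.0461), and this small change was lost without any one of 8 samples (adjusted p up to 0.0934), by a likelihood ratio test (0.0534), with protein-coding transcripts only (0.0539) and with replicate numbers as blocks (0.125).

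Between the diets Cyp39a1 passed no test on any day, with log2 differences from 0.03 to 0.16. The 95% interval of the difference averaged over the days ran from -0.10 to 0.30. Its reads were split among 3 protein-coding transcripts with median shares of 39.6% (the transcript of 2227 bases), 29.6% (2338 bases) and 29.3% (3053 bases). In the standard-diet samples of day 43, the transcript of 2338 bases took 3.30% ± 4.93 and that of 2227 bases took 71.0% ± 5.62 (SD, n = 3 each), against 27.8% ± 12.2 and 27.4% ± 3.78 (SD, n = 4 each) at day 0. The split between transcripts of one gene is an estimate, and these samples had RNA integrity numbers of 2.6 to 8.4.

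Hsd3b7, which removes the Gpr183 ligand, rose on the standard diet and did not pass the test on GW3965. At day 0 it was nearly the same in all samples, 28.4, 30.03, 26.9 and 26.4 CPM on the standard diet and 28.3, 26.5, 29.9 and 28.4 CPM on GW3965. At day 70 the standard-diet samples held 31.01, 51.3 and 42.5 CPM and the GW3965 samples 17.3, 23.8 and 30.98 CPM. Every standard-diet sample of day 70 was above day 0, and the lowest of them, replicate 1, was just above the highest GW3965 sample, replicate 3 (31.01 against 30.98 CPM). The log2 change over day 0 was 0.57 ± 0.16 (SE), adjusted p = 0.011 on the standard diet and -0.19 ± 0.17 (SE), adjusted p = 0.45 on GW3965. The standard-diet call was lost without replicate 2 of day 70 (0.38, adjusted p = 0.104).

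The difference between the diets in Hsd3b7 at day 70 was -0.75 ± 0.18 (SE), adjusted p = 0.0402 by edgeR's quasi-likelihood test, with means of 41.6 ± 10.2 and 24.02 ± 6.84 CPM (SD, n = 3 each). It was lost without GW3965 replicate 1, the sample with the skeletal muscle markers (-0.57, adjusted p = 0.145), and without each of the standard-diet replicates (adjusted p from 0.0766 to 0.129). In the fit with replicate numbers as blocks its adjusted p was 0.131. With only the groups compared in the fit it was 0.409. The difference between the 2 changes over time was -0.76 ± 0.23 (SE), adjusted p = 0.212, and among the alternatives run it passed only without GW3965 replicate 3 (adjusted p = 0.0348).

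At days 22 and 43 Hsd3b7 stood at 29.6 to 35.5 and 48.3 to 50.9 CPM on the standard diet, and at 29.7 to 35.3 and 38.5 to 45.5 CPM on GW3965. Day 43 samples were above all day 0 samples in CPM, but in TPM the day 43 means (18 ± 1.64 and 20.4 ± 7.24, SD, n = 3 each) were below those of day 0 (23.6 ± 0.765 and 24.5 ± 1.92, SD, n = 4 each), so the direction at day 43 turns with the scale. At day 70 the order of the diets was the same on both scales (35.4 ± 7.72 against 22.7 ± 5.07 TPM, SD, n = 3 each). The coding transcript of 1828 bases carried 58.2% to 93.8% of the gene's counts.

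Sult2b1, the sulfotransferase, passed no test between diets or over time in the model with the ribosomal term. Without that term it was higher at day 70 than at day 43 as a mean of both diets (log2 change 0.69 ± 0.29 (SE), adjusted p = 0.0435). It was 21.9 to 31.5 CPM at day 0 on the standard diet and 18.7 to 39.4 CPM on GW3965. At day 70 the GW3965 samples were the most scattered of any group, at 55.3, 13.7 and 46.03 CPM, around 24.8, 30.1 and 22.1 CPM on the standard diet. Replicates 1 and 3 held the highest Sult2b1 levels of all 26 samples and replicate 2 one of the lowest, in the order of their squamous marker sums (31074, 8.62 and 14200 CPM). The 2 orders were also the same on GW3965 at days 22 and 43. They were not the same on GW3965 at day 0 or in any standard-diet group, with squamous sums of 3566, 5673 and 5008 CPM at day 70. At day 0 on GW3965, where Sult2b1 reached 39.4 CPM, the squamous sum was 7.06 to 8.79 CPM. Whether squamous tissue accounts for the Sult2b1 levels was not tested. The log2 difference between the diets at day 70 was 0.50 ± 0.42 (SE), adjusted p = 0.537. At day 43 the standard-diet samples held 10.4, 13.2 and 21.01 CPM, below all day 0 samples of that diet, and the GW3965 samples 23.9, 15.7 and 36 CPM. Neighbouring groups in the order of its levels overlapped at all 7 steps.

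Sult2b1 has 2 upstream stretches in the reference table, chr7:45759613-45759862 and chr7:45742479-45742728 (GRCm38.p6, minus strand). The transcript that starts beside the first, a coding transcript of 1193 bases, carried 77.5% to 99.0% of the gene's counts, with a median of 95.5%. Neither stretch held any of the 7 motifs.

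**Figure D4:**
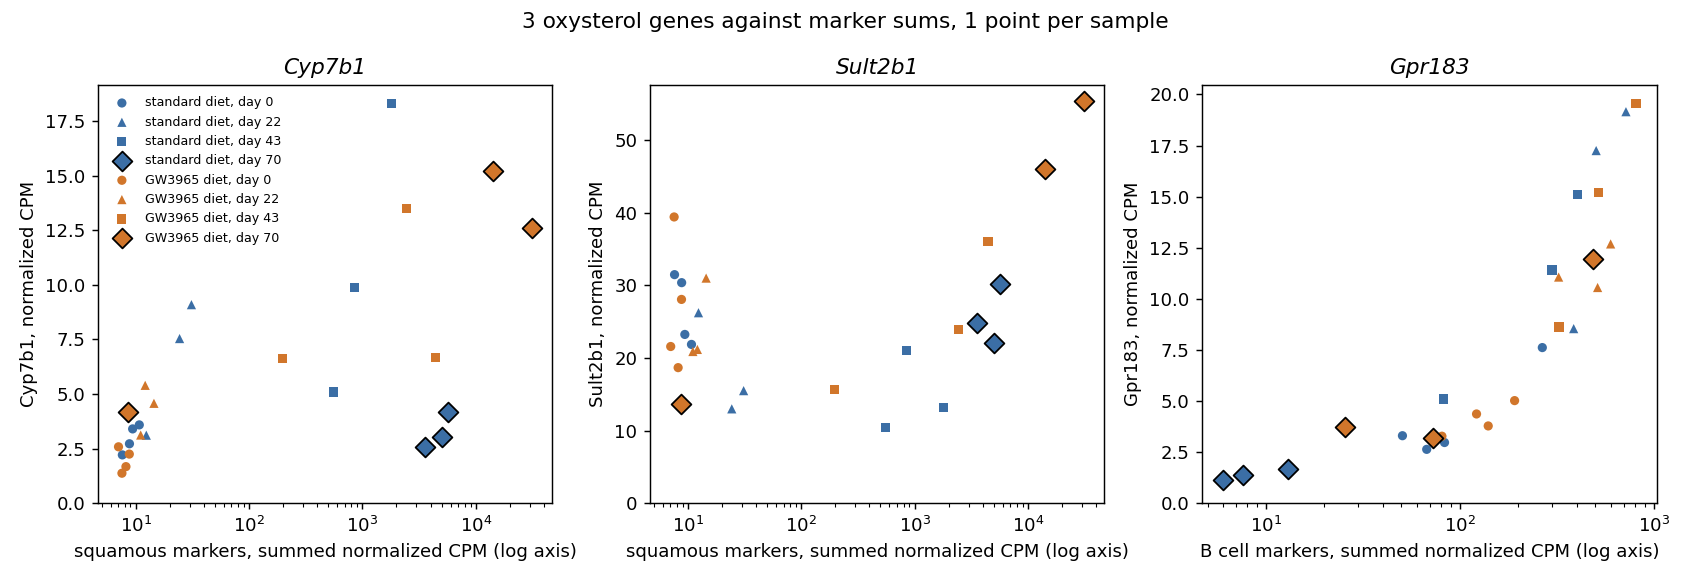
Normalized CPM of Cyp7b1 and Sult2b1 against the summed CPM of 12 stratified squamous markers, and of Gpr183 against 10 B cell markers (horizontal log axes), 1 point per sample, with day 70 as large diamonds. The 3 GW3965 samples of day 70 lie at 8.62, 14200 and 31074 CPM of squamous markers, and Gpr183 is lowest in the 3 standard-diet samples of day 70, where the B cell sum is lowest.

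Gpr183, the oxysterol receptor, rose at day 22 and ended at its lowest level in the standard-diet samples of day 70. At day 0 it was 2.64, 3.31, 7.62 and 2.97 CPM on the standard diet and 3.78, 5.02, 4.37 and 3.28 CPM on GW3965. At day 22 it was 8.54, 19.2 and 17.3 CPM and 11.1, 12.7 and 10.6 CPM, above all day 0 samples. The log2 change at day 22 was 1.73 ± 0.47 (SE), adjusted p = 0.0273 on the standard diet, 1.31 ± 0.47 (SE), adjusted p = 0.0761 on GW3965 and 1.52 ± 0.34 (SE), adjusted p = 0.00355 as their mean. The standard-diet call was lost without any one of 5 of its 7 samples (adjusted p up to 0.121). It was kept in 10 of the 11 other alternatives (adjusted p up to 0.0609), and the mean kept its call in all alternatives. At day 43 it was 5.10, 15.1 and 11.4 CPM and 15.2, 19.5 and 8.62 CPM. On the TPM scale the standard-diet level of day 43, 2.64 ± 1.31 (SD, n = 3), lay closer to the 2.21 ± 1.58 (SD, n = 4) of day 0.

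At day 70 Gpr183 was 1.16, 1.70 and 1.40 CPM on the standard diet and 3.17, 11.97 and 3.74 CPM on GW3965. The standard-diet samples were below every other sample of the series, and replicate 2 stood far above the other GW3965 samples. The log2 difference between the diets was 2.29 ± 0.53 (SE), adjusted p = 0.0357 by edgeR's quasi-likelihood test. Without GW3965 replicate 2 it was 1.42 (adjusted p = 0.0867), without GW3965 replicate 1 it was 2.59 (adjusted p = 0.0344), and without each of the standard-diet replicates its adjusted p was 0.0714 to 0.201. In the fit with replicate numbers as blocks its adjusted p was 0.169, and with only the groups compared it was 0.409.

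On the standard diet Gpr183 fell from day 0 to day 70 by a log2 change of -1.55 ± 0.49 (SE), adjusted p = 0.0198. Without the day 0 replicate 1 of 43 diet days (7.62 CPM) the change was -1.10 (adjusted p = 0.0832), and the call was also lost without replicate 1 or 3 of day 70 (adjusted p = 0.0700 and 0.0624). On GW3965 the change was 0.75 ± 0.47 (SE), adjusted p = 0.267. The difference between the 2 changes was 2.30 ± 0.68 (SE), adjusted p = 0.193, and it passed by DESeq2 (adjusted p = 0.0481) and without GW3965 replicate 3 (adjusted p = 0.0498).

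The 10 B cell markers, among them Ms4a1 and Cd79a, followed the same samples. Their sum at day 70 was 5.99, 12.9 and 7.57 CPM on the standard diet and 72.3, 485 and 25.6 CPM on GW3965, with replicate 2 highest among the GW3965 samples, as for Gpr183. It was 50.6 to 266 CPM at day 0 on the standard diet and 80.8 to 192 CPM on GW3965, and 387 to 719 and 323 to 600 CPM at day 22. All 10 were higher on GW3965 at day 70, and none was at 0 in all samples of a group. T cell markers summed to 8.78 to 21.3 and 28.7 to 109 CPM at day 70, and dendritic cell markers to 10.4 to 16.02 and 27.8 to 64.4 CPM. The part of the number of these cells in the Gpr183 difference was not tested.

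Taking the tests over time as a whole, 5 member results passed on the standard diet and 3 on GW3965. On the standard diet 3 members passed at day 22 (Ch25h and Gpr183 higher, Cyp39a1 lower), where 7.73% of all genes did, and 2 at day 70 (Hsd3b7 higher, Gpr183 lower), where 33.2% did. On GW3965 2 passed at day 22 (Ch25h higher, Cyp39a1 lower), where 12.6% of all genes did, and 1 at day 70 (Cyp7b1 higher), where 21.8% did. As a mean of both diets 4 passed at day 22 against 19.9% of all genes (Ch25h, Cyp7b1 and Gpr183 higher, Cyp39a1 lower), and 2 at day 70 against 43.3% (Cyp7b1 higher, Cyp39a1 lower). The 2 of 7 members at day 70 were thus a smaller share than that of all genes. The comparisons with day 0 share the day 0 samples.

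Day 43 could not be read in the same way, because the ribosomal percentage in the model was itself highest at day 43. With that term no member passed at day 43 against day 0 by edgeR's quasi-likelihood test, where 0% of all genes passed on the standard diet, 0.938% on GW3965 and 0.598% as their mean, and none passed between days 22 and 43 (0.147% of all genes) or days 43 and 70 (0%). In these 5 comparisons the members at an unadjusted p under 0.05 numbered 1, 2, 2, 0 and 0, and DESeq2 called 0, 1, 0 and 0 in the first 4 and gave no adjusted p in the last. For these counts too the shares of all genes are not given here. Without the term, 5 members passed in each diet at day 43 (Ch25h, Cyp7b1, Hsd3b7 and Gpr183 higher, Cyp39a1 lower), where 55.1% of all genes passed on the standard diet and 45.3% on GW3965. As a mean of both diets the count without the term was also 5 (64.6% of all genes), and from day 43 to day 70 it was 5 (59.2%).

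Without the ribosomal term the log2 changes at day 43 were largest for Cyp7b1, 1.89 ± 0.45 (SE), adjusted p = 0.00135 on the standard diet and 2.18 ± 0.46 (SE), adjusted p = 0.000715 on GW3965. With the term they were 1.89 ± 0.96 and 2.18 ± 0.75, of the same size with a wider error. For Cyp39a1 they were -1.01 ± 0.20 and -1.02 ± 0.20 without the term and -0.99 ± 0.41 and -1.01 ± 0.33 with it. For Ch25h they shrank with the term, from 1.21 ± 0.33 and 1.00 ± 0.33 to 0.48 ± 0.68 and 0.48 ± 0.53. The same held for Gpr183 on the standard diet, from 1.34 ± 0.45 to 0.52 ± 0.92. RNA quality and day 43 cannot be told apart in these samples.

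**Figure D5:**
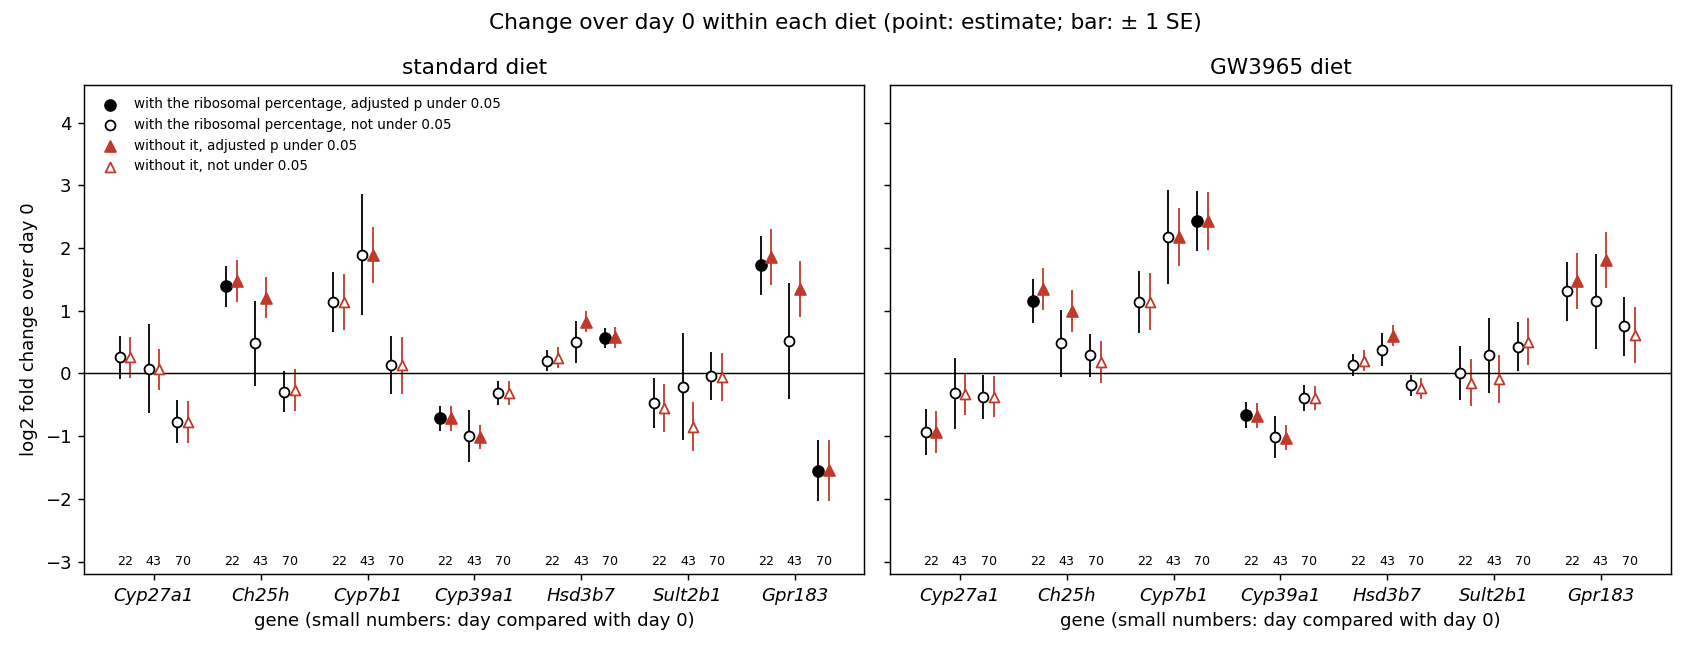
Log2 fold change over day 0 (vertical axis) of each gene at days 22, 43 and 70 in the standard diet (left) and GW3965 (right), with bars of ± 1 SE; black circles come from the model with the ribosomal percentage and red triangles from the model without it, filled where the adjusted p is under 0.05. The 2 models part mainly at day 43, where Ch25h on the standard diet is 0.48 with the term and 1.21 without it.

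The change over time did not pass a test of difference between the diets for any member by edgeR's quasi-likelihood test. At an unadjusted p under 0.05 there were 1, 0 and 3 members at days 22, 43 and 70, and DESeq2 called 0, 0 and 2 (Cyp7b1 and Gpr183). Among all genes 0.0234%, 0% and 0% passed at these days by the quasi-likelihood test. Their shares at an unadjusted p under 0.05 or by DESeq2 are not given here.

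Across the 26 samples, which share treatment, cell makeup and RNA quality, the levels of the members ranged from parallel to opposed. Pearson's r of log2 CPM was 0.80 between Ch25h and Gpr183, 0.51 between Ch25h and Cyp7b1 and 0.49 between Cyp7b1 and Gpr183. Cyp39a1 ran against them, with r = -0.73 to Cyp7b1, -0.62 to Hsd3b7, -0.60 to Gpr183 and -0.58 to Ch25h. Cyp27a1 followed none of the others, with r between -0.02 and 0.09. These are descriptions over samples that are not independent of the design.

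The genes most like each member over the same 26 samples were named by Pearson's r. For Gpr183 they were Btk, a kinase of B cell receptor signalling (r = 0.984), Il16 (0.983), Ptprcap (0.977), Rnase6 (0.976) and Cd72, a B cell surface protein (0.976). For Ch25h they were Cst7 (0.892), the interferon-induced Mx2, annotated as a polymorphic pseudogene (0.872), the T cell kinase Txk (0.871), the activation marker Cd69 (0.868) and Klrb1b (0.868). For Cyp7b1 they were Apobr (0.923), the interferon-inducible Ifi204 (0.909), Chil1 (0.900), the protein C receptor Procr (0.899) and the pseudogene Gm9973 (0.893).

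The remaining members had other neighbours. For Cyp39a1 they were Pdp2 (r = 0.935), Camk1d (0.926), Neo1 (0.915), Tmem87b (0.910) and the sodium-glucose transporter Slc5a1 (0.907). For Hsd3b7 they were Cfap20 (0.884), Cfdp1 (0.882), the DNA repair glycosylase Ogg1 (0.873), Magef1 (0.871) and the apoptosis gene Bax (0.867). For Sult2b1 they were Gsdmc (0.822), Plcd1 (0.799), the Notch-regulated Nrarp (0.788), Ovol1, a regulator of epidermal differentiation (0.776), and Epn3 (0.767). For Cyp27a1 they were Mmp11 (0.817), the histone gene Hist1h4h (0.804), Gm12551 (0.772), Peg3 (0.771) and Uggt2 (0.770).

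Other genes of the oxysterol pathway were called mostly over time. As a mean of both diets 19.9% of all genes were called at day 22 and 43.3% at day 70, and the counts below are to be read against these shares. Of 7 other enzymes that make or interconvert oxysterols, 5 were tested, and as a mean of both diets 3 were lower and 1 higher at day 22 (median log2 change -0.98, against 0.01 over all genes) and 3 lower and 1 higher at day 70 (median -1.26, against 0.07). Hsd11b2, which inactivates corticosteroids and also acts on ring-oxidized sterols, fell at day 70 (-2.10 ± 0.27 (SE), adjusted p = 7.66e-06), from 329 ± 64.1 CPM (SD, n = 4) to 97.5 ± 19.4 CPM (SD, n = 3) on the standard diet. Cyp3a13, of the family that hydroxylates sterols and drugs, fell likewise (-2.19 ± 0.29 (SE), adjusted p = 1.01e-05), and Cyp11a1, the side-chain cleavage enzyme of steroid synthesis, fell at day 22 (-1.78 ± 0.37 (SE), adjusted p = 0.00187). Cyp7a1, the rate-limiting enzyme of bile acid synthesis in liver, was not abundant enough to be tested, with at most 0.176 CPM.

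Among the later steps of bile acid synthesis 7 of 10 genes were tested, with 1 higher and 1 lower at day 22 and 2 higher at day 70 as a mean of both diets (medians 0.29 and 0.01, against 0.01 and 0.07 over all genes). The peroxisomal oxidase Acox2 was higher at day 70 (5.09 ± 0.65 (SE), adjusted p = 6.28e-06), with 0.163 ± 0.0470 CPM at day 0 and 5.73 ± 4.43 CPM at day 70 on the standard diet and 0.195 ± 0.0868 and 8.09 ± 10.6 CPM on GW3965 (SD, n = 4 and 3). Slc27a2, a fatty acid and bile acid ligase, was higher at day 70 (1.00 ± 0.25 (SE), adjusted p = 0.00307), and Hsd17b4, of peroxisomal side-chain shortening, was lower at day 22 (-0.58 ± 0.15 (SE), adjusted p = 0.00885).

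Of the 9 other oxysterol sensors, all tested, 1 was higher at day 22 and 2 were higher and 3 lower at day 70 (median -0.24, against 0.07 over all genes). Nr1h3, which encodes LXR alpha, fell at day 70 (-1.67 ± 0.19 (SE), adjusted p = 1.93e-06), from 28.2 ± 2.55 CPM (SD, n = 4) to 6.91 ± 1.03 CPM (SD, n = 3) on the standard diet and from 33.2 ± 2.45 CPM (SD, n = 4) to 12.3 ± 6 CPM (SD, n = 3) on GW3965. Cxcr2, a chemokine receptor of neutrophils that can respond to oxysterols, rose (5.29 ± 0.66 (SE), adjusted p = 5.23e-06), and the neutrophil marker sum was 165 to 233 and 96.02 to 245 CPM at day 0 and 354 to 714 and 272 to 1231 CPM at day 70 in the 2 diets. The part of neutrophil number in the Cxcr2 level was not tested.

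Of the 12 oxysterol-binding proteins, which carry lipids between membranes, 2 were lower at day 22 and 2 higher and 2 lower at day 70, with a median of 0.08 at day 70 (0.07 over all genes). The 4 of 12 at day 70 were a smaller share than the 43.3% of all genes. Osbpl6 and Osbpl2 fell at day 70 (-1.48 ± 0.17 (SE), adjusted p = 2.98e-06, and -0.53 ± 0.11 (SE), adjusted p = 0.00064) and Osbpl3 rose (1.41 ± 0.19 (SE), adjusted p = 9.83e-06). Of the 6 genes of sterol esterification and ester hydrolysis, 1 was higher and 2 lower at day 22 and 1 higher and 1 lower at day 70 (medians -0.16 and -0.05, against 0.01 and 0.07 over all genes). The 2 of 6 at day 70 were likewise a smaller share than that of all genes. Soat2, which esterifies cholesterol, rose at day 70 (2.28 ± 0.34 (SE), adjusted p = 3.15e-05) and Nceh1, an ester hydrolase, fell at day 22 (-0.44 ± 0.14 (SE), adjusted p = 0.0275). Ces1d, a carboxylesterase, fell at day 70 as a mean of both diets (-1.78 ± 0.29 (SE), adjusted p = 8.03e-05) and was the one gene of these lists that differed between the diets, being higher on GW3965 at day 70 (1.86 ± 0.44 (SE), adjusted p = 0.0402), at 14.5 ± 10.4 against 3.70 ± 1.46 CPM (SD, n = 3 each).

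Of 6 other genes of sulfation, 5 were tested, and 4 were lower at day 22 and at day 70 as a mean of both diets (median -1.51 at day 70, against 0.07 over all genes). Sult1a1 had the largest change (-3.98 ± 0.32 (SE), adjusted p = 6.08e-08), from 205 ± 63.7 CPM (SD, n = 4) to 12.03 ± 2.75 CPM (SD, n = 3) on the standard diet, followed by Sult1c2 (-2.38 ± 0.34 (SE), adjusted p = 2.25e-05) and Sult1b1 (-1.51 ± 0.27 (SE), adjusted p = 0.000221). Markers of differentiated colonocytes fell in the same comparison, with 6 of 8 lower and 1 higher at day 70, and their sum was 2155 to 4671 CPM at day 0 and 475 to 1364 CPM at day 70 on the standard diet. The part of colonocyte number in these levels was not tested.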

How the data were processed

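Distal colon polyA RNA was sequenced as paired-end reads of 150 bases. Per transcript and sample, the authors deposited estimated counts, effective lengths and TPM, made with kallisto against GRCm38 cDNA; no versions were given in the sources used here. Here 116728 of 119414 transcripts (97.8%) were matched to GENCODE vM21 genes (GRCm38), and estimated counts were summed per gene and rounded. The lost counts were 0.615% to 0.999% per library. CPM are scaled by TMM factors. The main test was edgeR 4.0.16's quasi-likelihood F-test on 8 groups with the ribosomal percentage (the share of counts falling on 88 genes of ribosomal proteins) as an additive term, after filterByExpr, with Benjamini-Hochberg adjustment over 17063 genes and a threshold of 0.05. SE are the log2 fold change divided by the square root of F. The study's methods used a likelihood ratio test with interaction terms for a ribosomal RNA percentage that they do not define. The share on ribosomal protein genes used here may be another quantity, and its additive form is a simplification. Alternatives were no covariate, the RNA integrity number as covariate, DESeq2 1.42.0 size factors or its Wald test, a likelihood ratio test, no filter, length-scaled counts, replicate numbers as blocks, only the groups compared, and each sample left out. Protein-coding transcripts only and leaving out day 43 were added after seeing the data. The scripts were tested on simulated data.

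The members and lists were chosen with earlier results of these data known. Named genes were all members, the 5 genes closest to each member by Pearson's r of log2 CPM (prior count 2), pathway genes that passed between the diets, and up to 3 pathway genes per list with the smallest p over time as a mean of both diets, except for an item that is not reported here. Upstream stretches came from RefSeq (GRCm38.p6) and matched 5 of 7 members by symbol, with no entry for Cyp7b1 or Cyp39a1. No sample pair held identical values.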

Additional observations from a re-analysis of the deposited data

Results flagged for a closer look

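One member value stood apart in its group. In the 4 standard-diet samples of day 0, Gpr183 was 7.62 CPM in replicate 1 of 43 diet days and 2.64, 3.31, 7.62 and 2.97 CPM in the group, and its gap to the nearest sample was 0.866 of the group's range, above Dixon's 95% critical value. The B cell marker sum was highest in the same sample, 266 CPM in a group range of 50.6 to 266 CPM. There were 14 such groups tested over the members, of which chance flags about 1 in 20.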

How the results depend on the processing

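Of 133 member results, 16 were called, and none of the 16 changed direction under any of 37 alternatives. The calls between the diets were the least stable. Their count of 2 became 4 with DESeq2's Wald test, 1 with length-scaled counts, and 0 with no filter, with only the groups compared, and without the 6 day 43 samples, and it ranged from 0 to 3 when 1 sample was left out. It fell to 0 without any one of the 3 standard-diet samples of day 70, replicate 2 of STD day 22, replicate 3 of STD day 43 or replicates 2 and 3 of GW3965 day 43, and to 1 without replicate 1 of GW3965 day 70 or any one of 8 other samples. The count over time of 5 on the standard diet became 10 without a covariate, with the RNA integrity number in its place and with only the groups compared, and ranged from 2 to 6 when 1 sample was left out, the lowest without replicate 3 of STD day 22, and 3 without replicate 2 of that group or without day 0 replicate 1 of 22 or replicate 2 of 43 diet days. The count of 3 on GW3965 became 10 without a covariate, 11 with the RNA integrity number or with only the groups compared, 5 with DESeq2's Wald test and 1 with no filter, and ranged from 1 to 4 when 1 sample was left out, the lowest without replicate 1 or 2 of GW3965 day 22, replicate 2 of GW3965 day 43 or day 0 replicate 1 of 22 diet days. The count of 6 as a mean of both diets became 18, 19 and 17 under the first 3 of these alternatives and ranged from 4 to 7. The count of 0 for differing changes became 2 with DESeq2's Wald test and 2 without replicate 3 of GW3965 day 70, with a range of 0 to 2. The extra calls over time without the ribosomal term were in comparisons with day 43, except on GW3965, where day 22 also gained. Without that term 55.1% of all genes passed at day 43 against day 0 on the standard diet, 45.3% on GW3965 and 64.6% as their mean. The shares of all genes under the other alternatives are not given here, so the counts under them show nothing particular to the members. The cause of these changes was not tested.

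Same-numbered samples did not deviate together (mean correlation -0.066 over 13 pairs, -0.370 to 0.201), so replicate numbers are names only. With replicate numbers as a block the 2 calls between the diets and 2 of the 3 on GW3965 were lost (counts of 0 and 1), and the counts were 4, 5 and 0 in the other families. Comparisons averaged over the days could not be fitted with only the groups compared, and those with day 43 not without its samples. Ch25h, Cyp7b1 and Gpr183 rest on 19 to 431 counts per sample, which limits their precision.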
